A study of Mus musculus with 2 samples.

Results

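Genes of the mitochondrial ribosome were examined in CD8+ T cells of mice with a deletion of the transcription factor Bcl11b in T cells and in wild-type CD8+ T cells, both from mice infected with Listeria monocytogenes-OVA and taken at day 6. The genes were those whose name on the array begins with Mrpl (large subunit) or Mrps (small subunit) followed by a number. Of 75 such genes with 125 probes, 71 genes with 90 probes were kept because at least 1 colour channel rose well above background on each array, against 9941 of all 27597 genes on the array. The kept genes comprised 47 large-subunit genes, counting Mrps30 and Mrps18a, whose proteins sit in the large subunit in mammals, and 24 small-subunit genes. Mrps36 fits the name rule, but its protein is now known as a subunit of a mitochondrial dehydrogenase complex.

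The mitochondrial ribosome makes the few respiratory-chain proteins that mitochondrial DNA encodes. Its own proteins are all encoded in the nucleus, made in the cytosol and imported, and they join ribosomal RNAs transcribed inside the organelle. Many of them have bacterial counterparts and others occur only in mitochondria. In T cells, activation is known to be followed by growth of the mitochondrial mass and by a rise in mitochondrial translation.

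The genotype of the deficient mice was Bcl11bF/F/dLck-iCre, where the distal Lck promoter drives Cre in T cells, and wild-type mice gave the cells they were set against. The labels do not say that the wild-type mice carried Cre or floxed alleles. Cells were isolated by negative selection, with a stated purity over 90%. Each of 2 Agilent arrays, on 1 slide, compared RNA of 1 biological replicate of each genotype, and the labels do not say how many mice a replicate holds. The dyes were not swapped: on each array Cy5 marked the deficient and Cy3 the wild-type sample, so dye and genotype cannot be told apart for any gene. Every ratio is deficient over wild type on the log2 scale, and its mean and SD are over 2 arrays.

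Some promoters of these genes hold known motifs, and the choice of genes did not use promoter sequence. RefSeq promoter windows (assembly GRCm38.p6, 250 bases before to 50 bases after a gene's start) were found for 66 of the 75 genes, as 72 windows, and were searched on both strands for 4 motifs of factors known to act on genes for mitochondrial and ribosomal proteins. The NRF1 motif GCGCANGCG was in 15 of the 72 windows (20.8%), against 6.25% of all 32851 windows. The ETS/GABPA motif CCGGAAG was in 24 (33.3%), against 8.86% of all windows, and the YY1 motif AAGATGGC in 11 (15.3%), against 2.75%. The E-box CACGTG was in 7 (9.72%), against 7.15%, but overlapping windows of Mrpl2 hold the same match, and by gene it was in 5 of 66 (7.58%). At least 1 of the 4 motifs was in 45 windows (62.5%), against 21.4% of all windows, and matches of different motifs did not overlap in any window of these genes. In 78 windows of genes with cytosolic ribosomal names, the shares were 11.5% for NRF1, 32.1% for ETS/GABPA, 10.3% for YY1 and 10.3% for the E-box. These are matches of letters, not measured sites of binding, and the windows compared were not matched for base composition.

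Below are the 250 bases before the start of 4 genes, none of which was called. Mrpl45 and Mrpl30 are the large-subunit genes with the lowest mean ratios. The start of Mrps11 lies 42 bases from that of the divergent gene Mrpl46. For Mrpl43 the ratio was above 0 on both arrays for both of its probes. Capitals mark the NRF1 motif in Mrpl45 and Mrpl30, the YY1 motif in Mrps11 and the ETS/GABPA motif in Mrpl43, as found on either strand, and each sequence is written 5′ to 3′ on the gene's own strand. The regions are chr11:97315466-97315715 (plus strand) for Mrpl45, chr1:37890227-37890476 (plus strand) for Mrpl30, chr7:78782881-78783130 (plus strand) for Mrps11 and chr19:45006443-45006692 (minus strand) for Mrpl43.
Mrpl45: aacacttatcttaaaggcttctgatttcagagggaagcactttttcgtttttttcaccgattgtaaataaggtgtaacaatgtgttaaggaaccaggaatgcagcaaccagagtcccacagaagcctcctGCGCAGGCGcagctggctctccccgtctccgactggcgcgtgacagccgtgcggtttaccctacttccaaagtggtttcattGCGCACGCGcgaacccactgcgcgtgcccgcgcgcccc
Mrpl30: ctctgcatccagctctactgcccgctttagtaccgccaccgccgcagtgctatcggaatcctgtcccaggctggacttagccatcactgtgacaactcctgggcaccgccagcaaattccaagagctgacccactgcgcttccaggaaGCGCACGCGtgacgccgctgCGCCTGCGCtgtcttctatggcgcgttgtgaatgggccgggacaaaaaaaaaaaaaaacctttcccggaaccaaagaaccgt
Mrps11: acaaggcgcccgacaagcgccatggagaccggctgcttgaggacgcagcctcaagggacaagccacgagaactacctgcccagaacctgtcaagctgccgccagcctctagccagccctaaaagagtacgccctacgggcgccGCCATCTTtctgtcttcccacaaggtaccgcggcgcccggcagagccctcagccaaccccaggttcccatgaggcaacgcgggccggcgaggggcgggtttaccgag
Mrpl43: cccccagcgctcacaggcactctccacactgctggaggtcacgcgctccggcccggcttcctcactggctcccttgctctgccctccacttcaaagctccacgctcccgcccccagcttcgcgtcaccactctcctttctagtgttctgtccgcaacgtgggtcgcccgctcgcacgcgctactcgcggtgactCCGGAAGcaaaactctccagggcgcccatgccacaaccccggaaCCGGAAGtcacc

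Of the targeted gene, the brighter Bcl11b probe had ratios of -0.69 and -2.95 on replicates 1 and 2 (mean -1.82, limma adjusted p = 6.56e-04), and the other probe, not above background in deficient cells, had -1.09 and -2.03. The labels do not give the deleted part, so a probe outside it would not test the deletion. The labelled cell type was checked against its markers. Cd8a, Cd8b1 and Cd3d were above background in both genotypes on both arrays. Over the 12 T-cell markers the median ratio was -1.14 and 5 were called lower. Of 20 macrophage markers, 16 were kept and all 16 were called higher, with means from 1.46 to 3.91. Called higher were also 6 of 8 kept B-cell markers, 3 of 7 neutrophil markers and 4 of 5 erythroid markers. Among all genes kept, 3.65% were called higher and 5.96% lower. In such bulk RNA, fewer cells of a type and less RNA per cell cannot be told apart. The part of these markers in the ratios that follow was not tested. Deficient RNA was well above background at 26% and 31.1% of gene spots, against 32.4% and 28.9% for wild-type RNA, so that fewer spots were detected in the deficient channel on replicate 1 and slightly more on replicate 2. Median signals of negative control spots were 968 and 707 in the deficient channel, against 326.5 and 406.1 in the wild-type channel.

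Few mitochondrial ribosomal genes differed between the genotypes beyond the test's limit. After loess, which centres the ratios of an array along its brightness range, the median of the 71 genes was -0.07, with -0.01 on replicate 1 and -0.12 on replicate 2, against -0.12 for all genes kept (-0.22 and -0.01). With median centring in place of loess it was -0.51, against -0.41 for all genes, and with the loess ratios centred on the genes' median it was 0.046, so the sign of the set's median rests on the scaling. Of the 71 genes, 1 was called lower (Mrps9) and 0 were called higher by limma at an adjusted p under 0.05, and 3 had an unadjusted p under 0.05 (4.23%). Over all 9941 genes, 5.96% were called lower and 3.65% higher, and 21.9% had an unadjusted p under 0.05. The standard error was 0.42 for every gene, and the smallest mean called was 1.18 in size, so a smaller shift could not be called with 2 arrays. A p that misses this limit does not show that a gene was equal in both genotypes.

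The spread of these ratios was narrower than that of genes at large. The interquartile range of the 71 genes ran from -0.37 to 0.18, against -0.56 to 0.34 for all genes kept, and the extremes were -1.27 and 0.66, against -2.84 and 3.91. On replicate 1 the SD across genes was 0.68 for the mitochondrial ribosomal genes and 0.96 for all genes. On replicate 2 it was 0.21 and 0.65. Some related lists were narrow on replicate 2 too: 0.33 for genes with cytosolic ribosomal names, 0.32 for ribosome assembly genes and 0.36 for protein import genes. Others had a larger SD, with 0.98 for mitochondrial aminoacyl-tRNA synthetases and 0.60 for biogenesis regulators. Of the 12 synthetases, 1 lay beyond 2-fold on replicate 2, Lars2 at 3.16. Their interquartile range on replicate 2, from -0.26 to 0.08, was close to that of the mitochondrial ribosomal genes, from -0.27 to 0.05. Beyond 2-fold in either direction lay 7 of the 71 genes on replicate 1 (9.86%), against 29.2% of all genes, and 0 of the 71 on replicate 2, against 8.92% of all genes. Within 0.5 of 0 on both arrays lay 36 of the 71 (50.7%), against 30.9% of all genes. These shares describe genes measured on the same arrays and have no test.

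**Figure D1:**
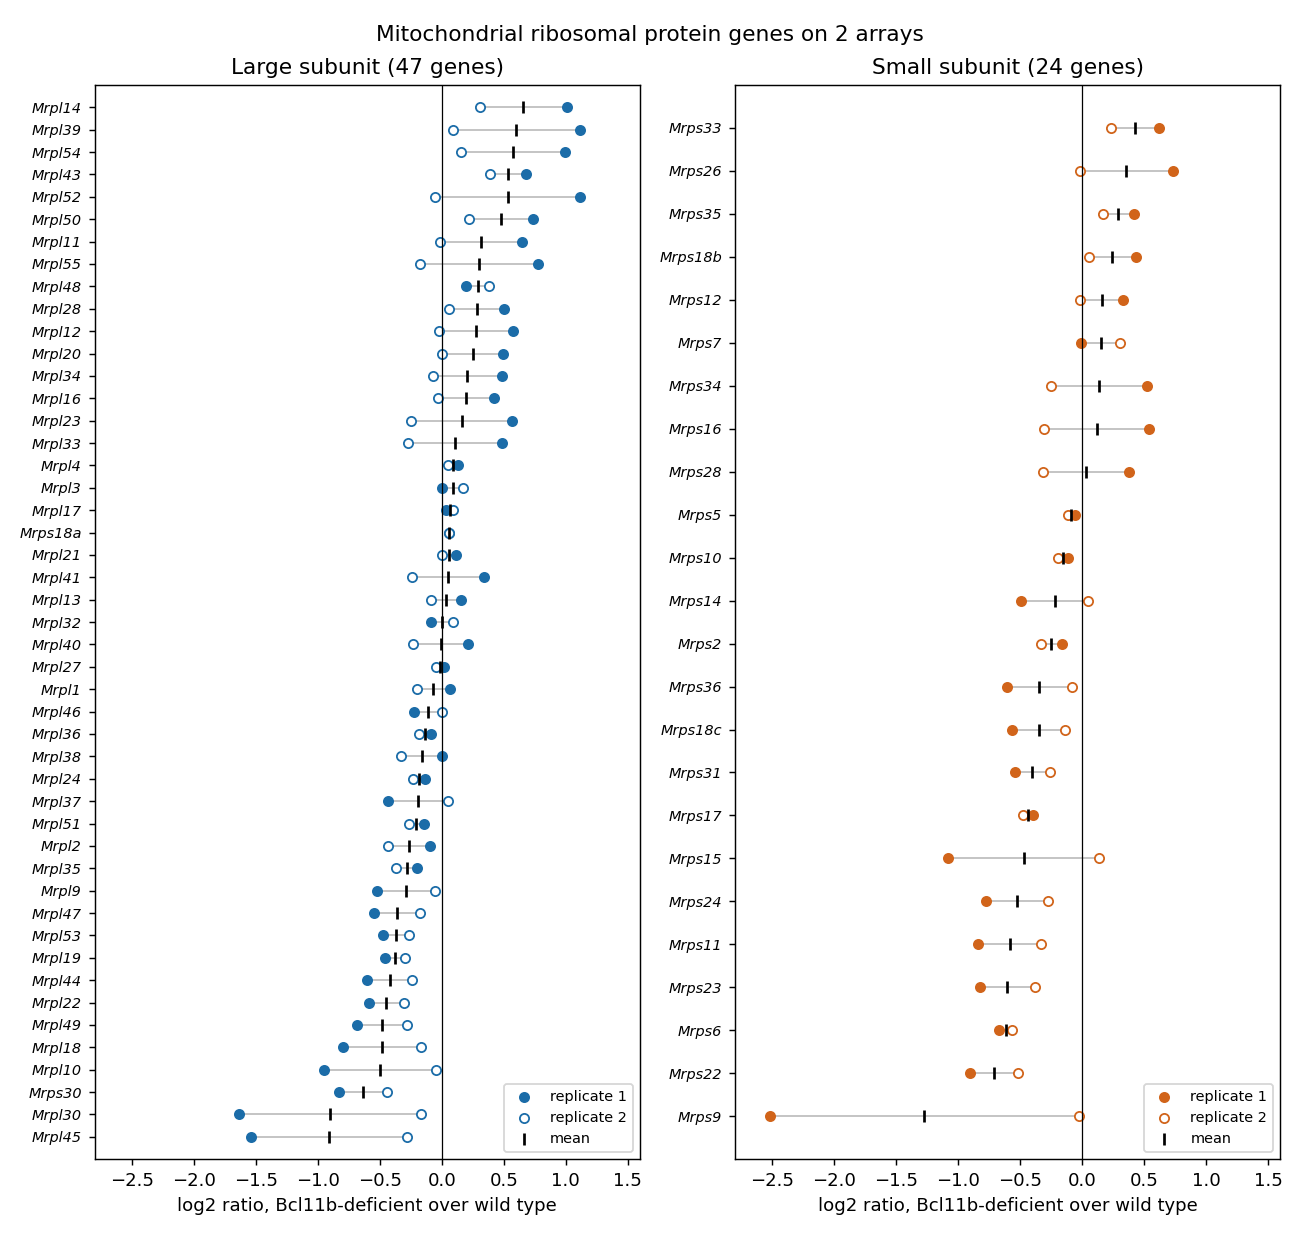
Log2 ratio of deficient over wild type on the horizontal axis for each of the 71 genes, large subunit in the left panel and small subunit in the right, ordered by mean. Filled points are replicate 1, open points replicate 2 and bars the mean. On replicate 2 all genes lie between -0.56 and 0.39, while Mrps9, Mrpl30 and Mrpl45 lie far to the left on replicate 1.

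The arrays gave different pictures of these genes. Ratios were above 0 on both arrays for 16 of the 71 genes (22.5%, against 32.5% of all genes) and below 0 on both for 30 (42.3%, against 41.5%). For 25 genes (35.2%, against 26% of all genes) the arrays had opposite signs. The ratio lay farther from 0 on replicate 1 for 53 of the 71 genes. Across these genes the replicates had a Pearson correlation of 0.40 and a Spearman correlation of 0.45, against 0.59 and 0.61 across all genes kept. All points share the same pair of arrays and the same dye orientation, so the correlation is a description.

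**Figure D2:**
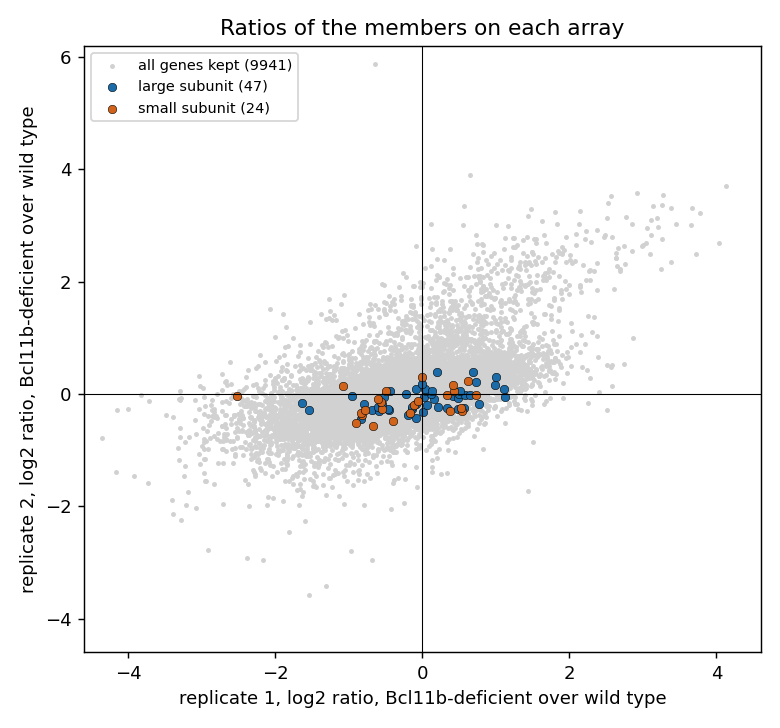
Log2 ratio on replicate 1 (horizontal axis) against replicate 2 (vertical axis), with the 9941 genes kept in grey, large-subunit genes in blue and small-subunit genes in orange. The mitochondrial ribosomal genes form a flat band, from -2.52 to 1.12 on replicate 1 and from -0.56 to 0.39 on replicate 2.

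The large subunit holds the peptidyl transferase centre and the exit tunnel. None of its 47 genes was called by limma (against 5.96% of all genes lower and 3.65% higher). An unadjusted p under 0.05 was found for 2 (4.26%, against 21.9% of all genes). Their median was -0.00, with 0.04 on replicate 1 and -0.07 on replicate 2, and 24 means were below 0 and 23 above. The 27 kept genes with bacterial counterparts had a median of 0.03, and the 19 genes found only in mitochondria -0.11. On both arrays 13 of the 47 ratios were above 0 (27.7%, against 32.5% of all genes) and 17 below (36.2%, against 41.5%).

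At the lower end of the large subunit stood Mrpl45 and Mrpl30, both through replicate 1. Mrpl45, whose protein lines the end of the exit tunnel and helps hold the ribosome at the inner membrane, had log2 intensities of 8.83 and 9.64 in deficient cells, against 10.37 and 9.92 in wild-type cells. The genotypes did not overlap, but replicate 1 gave a ratio of -1.54 and replicate 2 only -0.28 (mean -0.91 ± 0.89, SD, n = 2; limma adjusted p = 0.166). Its probe lies at chr11:97145129-97145188 on build NCBI36 (mm8), the build of the array design. Mrpl30, the counterpart of a bacterial large-subunit protein, had log2 intensities of 8.60 and 9.70 in deficient cells, against 10.23 and 9.86 in wild-type cells. Its ratios were -1.63 and -0.17 (mean -0.90 ± 1.04, SD, n = 2; limma adjusted p = 0.170), at chr1:37839880-37839939 (mm8). For both genes the deficient channel was above background on 1 of 2 arrays.

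Mrps30, a large-subunit protein found only in mitochondria despite its name, had ratios of -0.83 and -0.44 (mean -0.63 ± 0.28, SD, n = 2), with both channels above background on both arrays. Mrpl10, which anchors the stalk that recruits translation factors, had -0.95 and -0.04. Mrps30 was thus below 0 on both arrays, and Mrpl10 was close to 0 on replicate 2. Neither passed the test.

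The 6 highest means of all 71 genes belonged to the large subunit. Mrpl14, the counterpart of a bacterial protein at the face that meets the small subunit, had log2 intensities of 12.90 and 12.25 in deficient cells, against 11.90 and 11.94 in wild-type cells. The genotypes did not overlap, and the ratios were 1.01 and 0.31 (mean 0.66 ± 0.49, SD, n = 2; limma adjusted p = 0.360; probe at chr17:45161949-45162008, mm8). This value did not pass, and its mean turned to -0.22 when each array was centred on its median in place of loess. Mrpl43, found only in mitochondria, had ratios of 0.68 and 0.39 (mean 0.54 ± 0.21, SD, n = 2), and its other probe averaged 0.63. With median centring its mean was -0.32. Mrpl50 had 0.74 and 0.22, and its mean remained above 0 under each of 10 alternatives, from 0.10 to 0.59.

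Other large-subunit genes with high means owed them to replicate 1. Mrpl39, a protein related to an aminoacyl-tRNA synthetase domain, had 1.11 and 0.09. Mrpl54 had 0.99 and 0.16, Mrpl52 had 1.12 and -0.05, and Mrpl55 had 0.78 and -0.17. Mrpl11, a protein of the stalk base, had 0.65 and -0.01. None of these passed the test, and all of them except Mrpl39 had a mean below 0 with median centring.

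The small subunit binds the messenger RNA and holds the decoding centre. Of its 24 genes, 1 was called lower by limma (4.17%, against 5.96% of all genes) and 0 higher (against 3.65%). In all, 1 had an unadjusted p under 0.05 (4.17%, against 21.9% of all genes). The median was -0.24, with -0.28 on replicate 1 and -0.17 on replicate 2, and 15 means were below 0 and 9 above. On both arrays 13 of the 24 ratios were below 0 (54.2%, against 41.5% of all genes) and 3 above (12.5%, against 32.5%). Of those below, Mrps9, Mrps22, Mrps23, Mrps11 and Mrps36 had deficient RNA above background on fewer than 2 arrays. They were kept through the wild-type channel, so their direction follows largely from the filter. The median of the large subunit exceeded that of the small subunit by 0.24, by 0.31 on replicate 1 and by 0.10 on replicate 2. This difference was given no test. It was above 0 under all 10 alternatives in processing, from 0.03 with median centring to 0.29 with the deposited ratios. With both channels required above background it was 0.14, and the small-subunit median was -0.087. These alternatives reuse the same 2 arrays, so they are not independent of each other. The median log2 intensity was 9.82 for small-subunit probes, against 10.25 for large-subunit probes.

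Within the small subunit, the 15 kept genes with bacterial counterparts had a median of -0.25. On both arrays 9 of their ratios were below 0 (60%, against 41.5% of all genes) and 1 above (6.67%, against 32.5%). Among those below, Mrps9 and Mrps11 were kept through the wild-type channel. The 7 genes found only in mitochondria had a median of 0.14, with 0.42 on replicate 1 and -0.25 on replicate 2, so their direction differed between the arrays. The only member that passed, Mrps9, belongs to the first class, of which it is 6.67%, against 5.96% of all genes called lower.

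Mrps9, the counterpart of a bacterial protein of the small-subunit head, was called lower on the strength of replicate 1. Its log2 intensities were 7.94 and 10.02 in deficient cells, against 10.46 and 10.05 in wild-type cells. The deficient value was far below on replicate 1 and level with wild type on replicate 2, where the ratio was -0.03, against -2.52 on replicate 1 (mean -1.27 ± 1.76, SD, n = 2; limma adjusted p = 0.0310; probe at chr1:42844066-42847870, mm8). The deficient channel was above background on replicate 2 alone. Because limma gave every gene the same error, the spread between its replicates did not enter the test. Both other Mrps9 probes were not well above background in either genotype on either array, and had means of -0.30 and -0.13. Over 9 alternatives the mean ratio ranged from -2.36 to -0.57 and passed in 3, with adjusted p-values from 0.0276 to 0.353, and with both channels required above background the gene was not kept. Without replicate 1 the ratio is -0.03.

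Several small-subunit genes were below 0 on both arrays, short of the test. Mrps6, the counterpart of a bacterial protein, had log2 intensities of 9.98 and 9.92 in deficient cells, against 10.65 and 10.48 in wild-type cells. The genotypes did not overlap, and the ratios of -0.67 and -0.56 differed by less than those of any other gene among the 10 lowest (mean -0.62 ± 0.08, SD, n = 2; limma adjusted p = 0.398). Its other probe averaged -0.60. Mrps24, also with a bacterial counterpart, had -0.78 and -0.28, and Mrps23, found only in mitochondria, had -0.82 and -0.38. The mean of each of these genes remained below 0 under the alternatives that kept it.

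On neither array did deficient RNA lift Mrps22 or Mrps11 well above background, so both were kept through wild-type RNA alone. Their bounds on the fold equalled the measured mean ratio, so neither is a guaranteed minimum. Mrps22 belongs to the proteins found only in mitochondria, and variants of its human gene cause a mitochondrial disease. It had ratios of -0.91 and -0.52, with a mean 1.64-fold higher in wild-type cells (limma adjusted p = 0.308). Mrps11, with a bacterial counterpart, had -0.84 and -0.33, with a mean 1.5-fold higher in wild-type cells (limma adjusted p = 0.430). In the large subunit, Mrpl19 alone was in this state, with ratios of -0.46 and -0.29. Its mean was 1.30-fold higher in wild-type cells (limma adjusted p = 0.627), which again equalled its bound. Mrpl46, which starts 42 bases from Mrps11 on the other strand and was named for this position after its values were seen, had -0.22 and 0.00. The pair thus shares a start region, and neither gene was called.

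The highest small-subunit means were those of Mrps33 and Mrps26, both found only in mitochondria. Mrps33 had log2 intensities of 13.59 and 13.11 in deficient cells, against 12.97 and 12.88 in wild-type cells. The genotypes did not overlap, with ratios of 0.62 and 0.23, but its other probe averaged -0.08. Mrps26 had 0.73 and -0.01. With median centring both means were below 0, at -0.51 and -0.35.

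**Figure D3:**
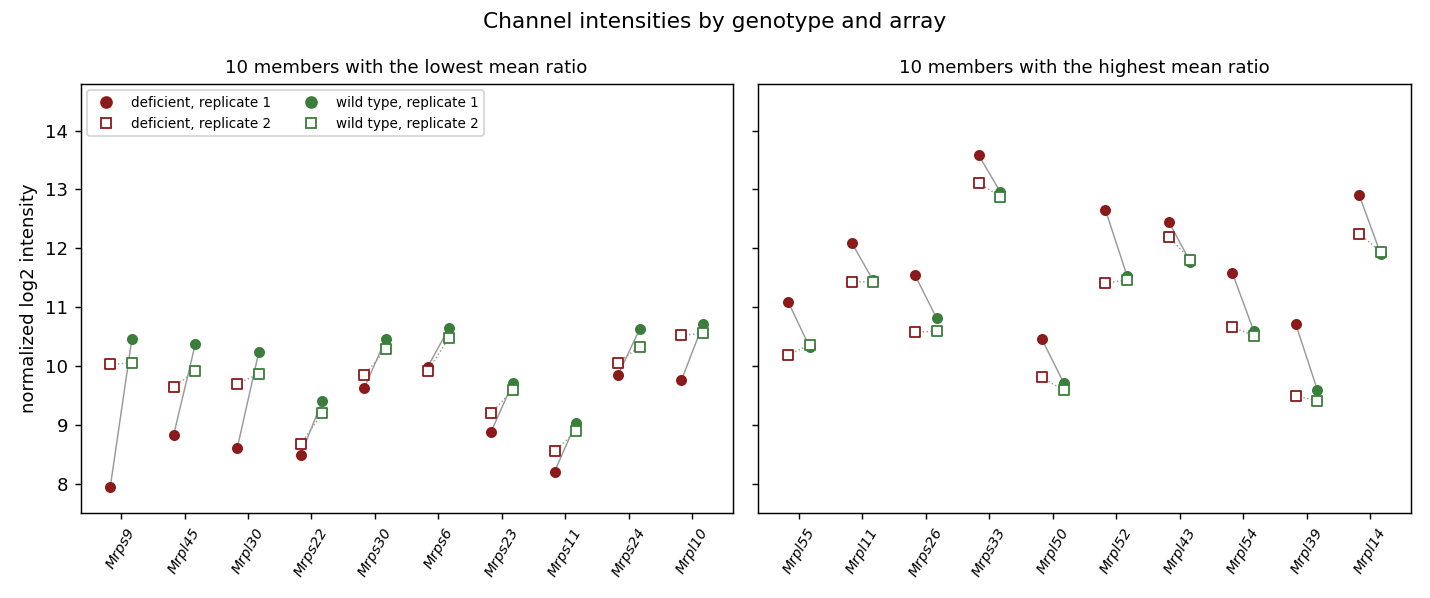
Normalized log2 intensity of the deficient channel (red) and the wild-type channel (green) for the 10 genes with the lowest mean ratios (left panel) and the 10 with the highest (right panel). Circles are replicate 1, squares replicate 2, and lines join the channels of 1 array. For Mrps9, Mrpl45 and Mrpl30 the deficient value of replicate 1 stands apart from the other values, and wild-type values of the replicates lie close together.

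The filter ties detection to the ratio: a gene with a dim deficient channel was kept only through its wild-type channel, so a ratio below 0 follows largely from the filter and is no finding. Wild-type RNA was above background on both arrays for 70 of the 71 genes and on 1 array for Mrps18b. Deficient RNA was above background on both arrays for 58 genes, on 1 array for 10 and on neither for 3. The 13 genes seen in deficient RNA on fewer than 2 arrays all had means below 0, from -1.27 to -0.19 with a median of -0.47. The other 58 genes had a median of 0.05, and 26 of their means were below 0. Among the 57 genes above background in both genotypes on both arrays, the means ran from -0.63 to 0.66 with a median of 0.05. In the limma fit over all 9941 genes, 0 of them were called and 0 had an unadjusted p under 0.05 (against 21.9% of all genes). With limma fitted only to genes with both channels above background, 0 of the 57 were called and 3 had an unadjusted p under 0.05. That fit called 3.77% of 5836 genes lower and 9.6% higher.

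Brightness moved with the ratio too, on replicate 1. The Spearman correlation of ratio with mean log2 intensity across the 71 genes was 0.53 on replicate 1 and 0.05 on replicate 2. For the mean ratio it was 0.44, against 0.12 across all genes kept. The same value was 0.49 for the genes with cytosolic ribosomal names, 0.48 for protein import genes and 0.56 for assembly genes. It was 0.43 for mitochondrial DNA and transcription, 0.29 for mitochondrial aminoacyl-tRNA synthetases and 0.24 for translation factors. For biogenesis regulators it was -0.02, and for mitochondrial ribosomal proteins with other names -0.07. The trend was thus not particular to this set, but not every related list had it. The 35 brighter genes had a median of 0.34 on replicate 1 and -0.17 on replicate 2. The 36 dimmer genes had -0.33 and -0.07. All 8 genes with a mean log2 intensity over 12 were above 0 on replicate 1, from 0.49 to 1.01, and 4 of the 8 were below 0 on replicate 2, where they ran from -0.30 to 0.39. The part of brightness in the ratios was not tested.

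**Figure D4:**
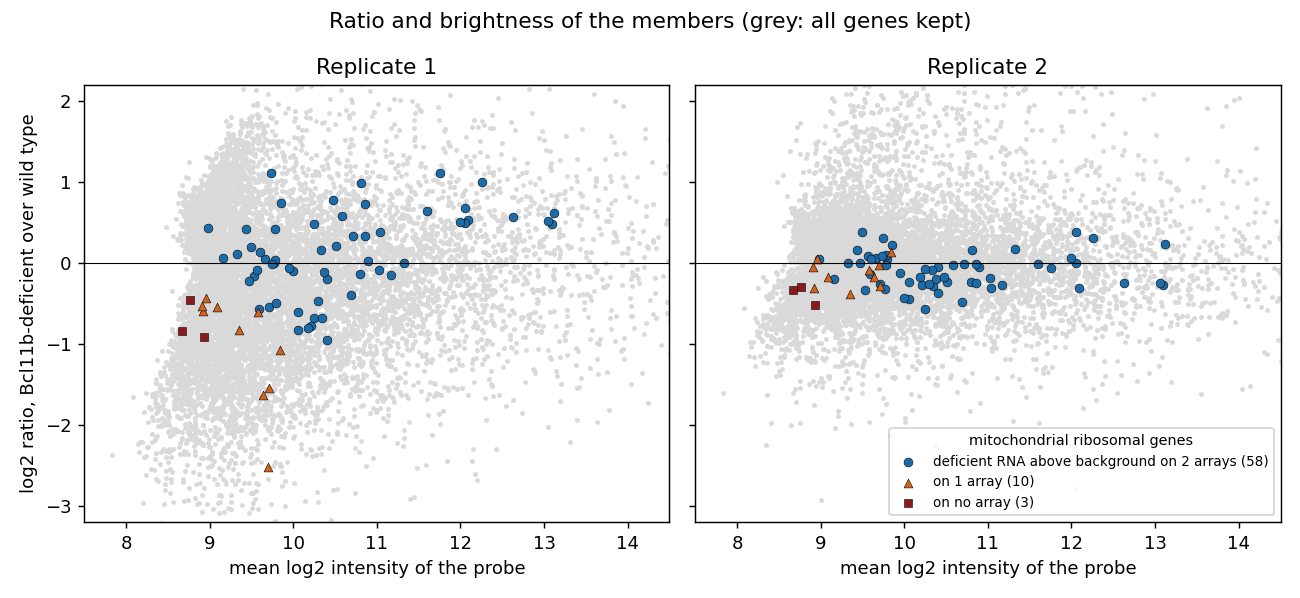
Log2 ratio (vertical axis) against the mean log2 intensity of the probe (horizontal axis) on replicate 1 (left) and replicate 2 (right). Coloured points are the 71 genes, by the number of arrays on which deficient RNA was above background, and grey points are all genes kept, of which those beyond the axis range are not drawn. The 13 genes seen in deficient RNA on fewer than 2 arrays lie toward the dim end, and the 8 brightest genes lie above 0 on replicate 1 and on both sides of 0 on replicate 2.

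Different probes of a gene often disagreed. Of 15 genes with several kept probes, 9 had probe means of both signs, and the median spread between probe means was 0.44. Mrps18c, 1 of the paralogues related to a single bacterial protein, had the widest spread: its brighter probe gave -0.56 and -0.14, and its other probe 1.13 and 0.19 (means -0.35 and 0.66, a spread of 1.01). The probe means of Mrpl3 ran from -0.69 to 0.24 over 3 probes, those of Mrps7 were 0.15 and -0.75, and those of Mrpl49 ran from -0.48 to 0.31. Mrpl18 ran from -0.48 to 0.13, Mrpl28 from -0.16 to 0.28, Mrps2 from -0.25 to 0.05 and Mrps5 from -0.09 to 0.10. The probe means of Mrps6, Mrpl38 and Mrpl43 lay within 0.10 of each other. For 56 genes 1 probe was kept, so no such check was possible.

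Of the 75 genes, 4 were not kept, because neither channel was above background on both arrays. Mrpl15 had ratios of -1.74 and -0.73 and Mrps21 had -1.27 and -0.59. Mrps27 had -1.12 and 0.35, and the probes of Mrps25 had means of -0.28 and 0.03. These values rest on dim spots and were not tested. The dim genes of the set are therefore described in part only.

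The promoter motifs did not sort the ratios into separate ranges. The 22 genes with an ETS/GABPA match had a median of 0.08, against -0.19 for 41 genes without one. The 14 genes with an NRF1 match had -0.14, against -0.11 for 49 without. Medians with and without a match were -0.16 and -0.09 for YY1 (10 and 53 genes) and -0.19 and -0.08 for the E-box (5 and 58 genes). Mrps9, Mrpl45 and Mrpl30, with the lowest means, and Mrpl14 and Mrpl39, with the highest, all had an NRF1 match in their windows.

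The mitochondrial ribosome also holds proteins with other names. Of these, 8 of 8 genes were kept, 0 were called by limma, 0 had an unadjusted p under 0.05 (against 21.9% of all genes), and their median was -0.09. Ptcd3, a small-subunit protein with RNA-binding repeats, had the lowest ratios at -0.75 and -0.45. Mrpl42, listed on the array under an older name, had 0.45 and 0.32. The release factor Mrpl58 had -0.01 and -0.65, and the GTP-binding small-subunit protein Dap3 had -0.04 and -0.13. The genes with cytosolic ribosomal names, of which 79 were kept, had a median of 0.02, with 0.29 on replicate 1 and -0.20 on replicate 2. Of them 1 was called higher (Rpl37a, 2.38 and 0.66) and 2 lower (Rpl29, -1.81 and -0.65, and Rpl4, -2.29 and -0.16). These were 1.27% and 2.53% of the list, below the 3.65% and 5.96% of all genes. Like the median of the brighter mitochondrial ribosomal genes, the cytosolic median was above 0 on replicate 1 and below 0 on replicate 2.

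Genes for building the mitochondrial ribosome had a lower median than its structural genes, but the filter bears on this difference. Of 18 kept genes for assembly of the ribosome, such as GTPases, helicases and ribosomal RNA methyltransferases, 1 was called lower (5.56%, against 5.96% of all genes) and 0 higher by limma, 5 had an unadjusted p under 0.05 (27.8%, against 21.9%), and the median was -0.49 (-0.75 on replicate 1 and -0.35 on replicate 2). On both arrays 12 of the 18 were below 0 (66.7%, against 41.5% of all genes), and 16 of the 18 means were below 0. The called gene was Mtg2, a GTPase of large-subunit assembly, with -2.0 and -0.65. It was not above background in deficient cells on either array (limma adjusted p = 0.0226). Its bound put it 1.77-fold higher in wild-type cells, which is no guaranteed minimum. The median log2 intensity of the assembly genes was 9.16, lower than that of either subunit. For most assembly genes deficient RNA was above background on fewer than 2 arrays, and on neither for Mtg2, Ngrn, Nsun4 and Mrm3. Such genes were kept through wild-type RNA alone and all had means below 0, which follows largely from the filter. The difference between assembly and structural genes was not tested.

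Other lists of mitochondrial gene expression were small, with 0 or 1 call each. None of 14 kept translation factors was called by limma, 2 had an unadjusted p under 0.05 (14.3%, against 21.9% of all genes), and the median was -0.29. Of 12 kept mitochondrial aminoacyl-tRNA synthetases, Lars2 alone was called (8.33% higher, against 3.65% of all genes), with ratios of 1.43 and 3.16 (mean 2.30 ± 1.22, SD, n = 2; limma adjusted p = 5.32e-06), and the median was -0.11. Of 7 kept genes for mitochondrial DNA and its transcription, Polg, the mitochondrial DNA polymerase, was called lower with -2.07 and -0.59 (limma adjusted p = 0.0221). This is 14.3% of the list, against 5.96% of all genes. Deficient RNA was not above background, so Polg was kept through wild-type RNA alone, and its ratio below 0 follows largely from the filter. By its bound it was 2.12-fold higher in wild-type cells. The median of these 7 was -0.48.

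Of 8 kept regulators of mitochondrial biogenesis, 2 were called lower (25%, against 5.96% of all genes), and the median was -0.31. Myc, a transcription factor that drives growth and ribosome production, had log2 intensities of 9.73 and 9.81 in deficient cells, against 11.45 and 11.23 in wild-type cells. The genotypes did not overlap and the ratios of -1.72 and -1.42 were alike (mean -1.57 ± 0.21, SD, n = 2; limma adjusted p = 0.00475). The coactivator Ppargc1b had -2.72 and -1.22 (limma adjusted p = 1.73e-04), with deficient RNA not above background on either array. By its bound it was 2.70-fold higher in wild-type cells. Of 25 kept genes for protein import, Timm21 and Timm8a1 were called lower (8% of the list, against 5.96% of all genes), and the median was -0.25. Timm21 had -2.67 and -1.02 (limma adjusted p = 5.23e-04) and was 2.14-fold higher in wild-type cells by its bound. Timm8a1 had -1.48 and -0.98 (limma adjusted p = 0.0389). Of these 4 called genes, deficient RNA was above background on both arrays for Myc alone. The others were kept through the wild-type channel, so their ratios below 0 follow largely from the filter.

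**Figure D5:**
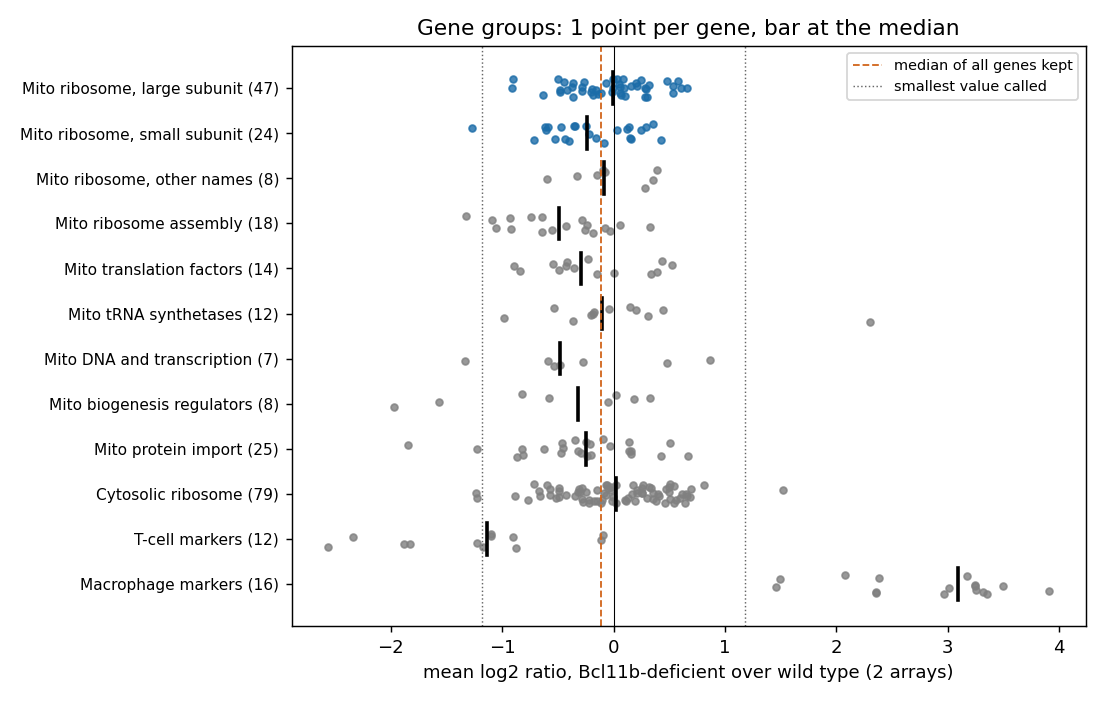
Mean log2 ratio of deficient over wild type (horizontal axis), 1 point per kept gene, for the 2 subunits (blue) and for related lists and cell markers (grey), with a black bar at each median. The dashed line is the median of all genes kept, and dotted lines mark the smallest mean called, 1.18. All genes of both subunits except Mrps9 lie between the dotted lines, while macrophage markers lie to the right of them.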

How the data were processed

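RNA of deficient and wild-type CD8+ T cells was hybridised to 2 Agilent 2-colour arrays of 45018 spots. Linear amplification preceded chemical labelling, per the labels' protocols. Per the file headers, the deposited scanner files give intensity values per spot (mean signal and median local background) from Agilent Feature Extraction 9.5.3.1, and its log10 ratio of red over green after dye normalization. The values in the deposited table are this log10 ratio: they equal the scanner files within 0.00500 on the log10 scale, have a median of 0 in each column and show no further centring.

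From the intensities, background was corrected with normexp (offset 50), log2 ratios were adjusted by loess on each array separately (control spots at weight 0), outlier spots were left out (255 and 195 gene spots) and spots of a probe averaged. A probe entered if either channel exceeded background well on both arrays (12632 of 41174 probes). The brightest probe stood for its gene. The two-sided test of each ratio against 0 used lmFit and eBayes of limma 3.58.1 (R 4.3.3), with Benjamini-Hochberg adjustment over all 9941 genes and a threshold of 0.05; the prior degrees of freedom were infinite. For separate channels, statmod 1.5.0 was used too. The number of arrays limits the precision. Bounds divide the brighter group's mean by the dimmer group's, after loess and Aquantile. Each dim value was set no lower than the lowest signal well above background, and a higher one entered as measured. Bounds are thus no guaranteed minimum, and they are open to dye bias. Slide and scan could not be tested as batches, since both arrays lie on 1 slide.

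Genes were named through RefSeq accessions (108 of 125 member probes) or symbols (17), assembly GRCm38.p6. Coordinates of probes come from the array files (NCBI36, mm8); exons were not assigned. Named were called members, the 10 lowest and 10 highest means, members with probes of both signs and up to 4 called genes per related list. Members, lists and tests were chosen with earlier results of these data known. Alternatives changed the background correction, normalization, filter, choice of probe and source of the ratio, and left out each replicate.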

Additional observations from a re-analysis of the deposited data

How the results depend on the processing

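The count of mitochondrial ribosomal genes called lower was 1 as reported and with a normexp offset of 16, with centring on the genes' median after loess or with the mean of a gene's probes. It was 0 without background correction, with the Feature Extraction ratio, with median centring in place of loess, without a filter on dim probes, with both channels required above background, with the deposited value table and with separate channels and no replicate block. With 1 array it ranged from 0 to 3, where Mrps9, Mrpl30 and Mrpl45 passed the limit of 1.18 on replicate 1 without a test. The count called higher was 0 under all these settings. The within-array ratio pairs the replicates, and the fit of separate channels without that block kept each mean and called 0 genes in all.

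The median of the 71 genes, -0.07, ranged from -0.12 to -0.01 over single arrays and was -0.51 with median centring (against -0.41 for all genes), 0.046 with centring on the genes' median and 0.049 with both channels above background. It lay above the median of all genes by 0.05 after loess and below it by 0.10 with median centring. The large-subunit median, -0.00, ranged from -0.07 to 0.04 over single arrays and was -0.13 with the Feature Extraction ratio and the deposited table, -0.49 with median centring and 0.11 with centring on the genes' median. The small-subunit median, -0.24, ranged from -0.28 to -0.17 over single arrays. It was -0.13 without background correction, -0.42 with the Feature Extraction ratio and the deposited table, -0.52 with median centring, -0.12 with centring on the genes' median and -0.087 with both channels above background.

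Over all genes, 592 were called lower and 363 higher; the counts were 184 and 289 without background correction, 76 and 56 with the Feature Extraction ratio, 76 and 55 with the deposited table, 350 and 69 with median centring, 561 and 536 with centring on the genes' median, 220 and 560 with both channels above background, and 0 and 0 without a filter or with separate channels.

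Of 274 values of the 28 named genes under 10 alternatives, 248 kept their direction and side of the threshold, 6 of Mrps9 no longer passed, and 20 changed sign, none of them called. With median centring, means were -0.31 for Mrpl55, -0.49 for Mrpl11, -0.35 for Mrps26, -0.51 for Mrps33, -0.31 for Mrpl52, -0.32 for Mrpl43, -0.12 for Mrpl54, -0.22 for Mrpl14, -0.66 for Mrpl3, -0.093 for Mrps7 and -0.57 for Mrpl28. With the mean of probes they were 0.15 for Mrps18c, -0.12 for Mrpl3, -0.30 for Mrps7 and 0.0071 for Mrps5, and with centring on the genes' median 0.026 for Mrps5. With the Feature Extraction ratio and the deposited table they were -0.023 for Mrpl3 and -0.013 for Mrps7. The cause was not tested. Dim spots limit the rest: in 13 of the 71 genes deficient RNA was above background on fewer than 2 arrays.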
